A study of Mus musculus with 6 samples.

Results

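The genes described here are the chemokines, interleukins and their receptors, the tumour necrosis factor (TNF) family, the Toll-like receptors and the NF-kB pathway, as expressed in 2H11 cells. They were chosen by gene symbol: the chemokine, interleukin, Tnfsf, Tnfrsf, Tnfaip, Toll-like receptor, Traf, Ikbk, Nfkb and Rel names. Lif, Osmr, Myd88, Ptgs2 and Cd14 were included by name. The choice was made with earlier results of these data known, so the shares of members that changed are not those of a blind set. Of 11773 genes in the deposited table, 96 matched, under 94 symbols, since Il11ra2 is listed in 3 copies. The 2H11 line is labelled as an endothelial line of the axillary lymph node of the mouse strain C3H/HeJ. Starved cells were kept for 48 h with BMP4, bone morphogenetic protein 4 (3 libraries), or with BMP4 and palovarotene (3 libraries, called palovarotene libraries here). Palovarotene is a retinoid drug selective for the gamma form of the retinoic acid receptor. All 6 libraries come from BMP4-treated cells of 1 line, and no group without BMP4 is used here, so the comparison addresses only what the retinoid changes on top of BMP4. Whether a group's libraries are separate cultures is not in the labels, so every p-value is set against a spread between libraries that may be only technical.

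Chemokines are small secreted proteins that guide leukocytes, and interleukins and TNF family ligands carry signals between immune and stromal cells. Receptors of the Toll-like, interleukin-1 and TNF families pass their signal through adaptors such as Myd88 and the Traf proteins to the IKK kinase complex. IKK marks the inhibitor Nfkbia (IkB alpha) for destruction, which frees Rel and Nfkb dimers to enter the nucleus and switch on genes that include many chemokines. Among those targets are Nfkbia itself and Tnfaip3 (A20), which shut the pathway down again. Receptors of the interleukin-6 family share the subunit Il6st (gp130) and signal through Jak kinases instead.

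The NF-kB binding consensus was found, on either strand, in the promoters of 14 of the 71 member symbols that have a promoter in RefSeq (build GRCm38.p6), or 19.7%, where the window reaches from 250 bases before to 50 after the start. Over all 27025 symbols with a promoter of that length the share was 5.14%, and over the 9152 of them in the deposited gene table it was 6.18%. The matches lay in the promoters of 3 of 13 members that rose, 4 of 27 that fell and 7 of 28 that did not pass the test. The 6 stretches shown here are examples from inhibitors, a receptor, a chemokine and subunits of NF-kB itself, with the match in capitals and 25 bases on each side.
Nfkbia promoter, chr12:55492642-55492701, minus strand: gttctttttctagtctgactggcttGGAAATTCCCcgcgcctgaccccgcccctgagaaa
Tnfaip3 promoter, chr10:19015388-19015447, minus strand: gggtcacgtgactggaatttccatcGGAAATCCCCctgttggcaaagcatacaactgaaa
Tlr2 promoter, chr3:83841746-83841805, minus strand: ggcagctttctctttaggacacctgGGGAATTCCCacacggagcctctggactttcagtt
Cxcl1 promoter, chr5:90891149-90891208, plus strand: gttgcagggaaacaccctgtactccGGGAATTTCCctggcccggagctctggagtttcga
Nfkb2 promoter, chr19:46304673-46304732, plus strand: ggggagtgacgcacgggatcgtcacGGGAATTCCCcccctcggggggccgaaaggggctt
Rel promoter, chr11:23771027-23771086, minus strand: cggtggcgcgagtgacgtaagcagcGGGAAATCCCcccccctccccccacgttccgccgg
The match began 29 bases before the start in Nfkbia, 12 in Tnfaip3, 172 in Tlr2, 71 in Cxcl1, 39 in Nfkb2 and 92 in Rel. Palindromic matches can be read on both strands and overlap others shifted by 1 base. A match is a run of letters and was not tested as a binding site. The binding sites of retinoic acid receptors are paired half-sites. Among the members, the pair spaced by 5 bases occurred in 1 promoter, that of Tnfsf13b, whose sequence is shown because this gene rose most by ratio among the TNF ligands.
Tnfsf13b promoter, chr8:10006220-10006286, plus strand: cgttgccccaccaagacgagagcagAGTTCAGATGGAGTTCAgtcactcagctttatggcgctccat
The pair is in capitals and begins 222 bases before the start. It was present in 31 of all 27025 symbols (0.115%) and in 5 of the 9152 in the gene table (0.0546%). The pair spaced by 1 base was found in the promoter of Cxcl10 alone among the members, in 0.263% of all symbols and in 0.284% of those in the gene table. The pair spaced by 2 bases was found in 0 of the 71 member symbols, in 0.311% of all and in 0.109% of those in the gene table.

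Expression values are FPKM, fragments per kilobase of gene and scaled to the mapped fragments of the library, as computed by the authors. The length used for each gene was not established here. Some listed transcripts, such as Il1rn-204, stand above their gene in FPKM, so levels of different genes can be compared only roughly. Genes appear in the table only where a group mean reached about 0.5 FPKM, so a gene outside it is not analysed here. Values were compared on the scale log2(FPKM + 1) with limma over the 11584 genes whose mean reached 0.5 FPKM, and a gene is said to rise or fall where its Benjamini-Hochberg adjusted p was below 0.05. Log2 fold changes are palovarotene minus BMP4 on that scale and understate the change of low genes, for which the ratio of mean FPKM is given. Correlations of log2(FPKM + 1) across genes were 0.988 to 0.991 among BMP4 libraries, 0.993 among palovarotene libraries and 0.954 to 0.959 between groups. Of 12 endothelial markers, 4 are in the table (Flt1, Tek, Vwf and Egfl7), with a summed level of 8.02 to 8.34 FPKM in BMP4 libraries and 3.05 to 3.39 in palovarotene libraries. Pecam1, Cdh5 and Kdr are among the 8 not analysed here. Of 14 leukocyte markers, 4 are in the table (Cd68, Aif1, Lst1 and Lyz2), with a sum of 15.5 to 21.6 FPKM in BMP4 libraries and of 11.6 to 15.0 in palovarotene libraries, and Ptprc and Itgam are among the 10 not analysed here. All 8 fibroblast markers are in the table, and 5 fell and 2 rose, with a median log2 fold change of -0.30. Summed over the 8, BMP4 libraries lay at 955 to 1017 FPKM and palovarotene libraries at 1078 to 1133. Col1a1, the most abundant, rose from a mean of 523 to 684 FPKM and Pdgfra from 9.25 to 28.0, whereas Dpt fell from 20.0 to 0.345, Lum from 2.00 to 0.7 and Pdgfrb from 39.2 to 25.5. The part of these shifts in the changes described here was not tested, and in bulk RNA fewer cells of a type and less RNA per cell cannot be told apart.

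Palovarotene lowered more of these genes than it raised. Of the 96 members, 93 were tested, and 19 rose and 40 fell, while 34 did not pass the test. That is 63.4% of the tested members, against 43.0% of all genes tested. The share that fell was 43.0% (23.8% of all genes) and the share that rose was 20.4% (19.1% of all genes). The median log2 fold change was -0.17 over the tested members and -0.03 over all genes tested. No overlap between the groups was seen in 64 of the 93 members (68.8%, against 54.9% of all genes). Most changes were modest: 11 members changed at least 2-fold on the log2(FPKM + 1) scale (11.8%, against 3.73% of all genes). The 6 that rose by this much were Il1rn, Tnfaip3, Tnfrsf1b, Il4ra, Il33 and Tnfsf13b, where 2.07% of all genes tested did so. The 5 that fell by this much were Ccl8, Tlr2, Cxcl14, Il18 and Tnfrsf25, where 1.66% of all genes tested did so. Of the 96 members, 9 had a mean under 0.5 FPKM in 1 group and are in the table through the other group alone, so for them a difference was a condition of being listed. They are Il1rn, Il33, Tnfsf13b, Cxcl14, Tnfrsf25 and Il17d, which were tested, and Ccl17, Tnfsf15 and Il22ra1, which were not. Levels ran from 0.345 FPKM (mean of all libraries) for Tnfsf15 to 111 for Tnfrsf12a, with a median of 3.23, and 59 members lay under 5 FPKM. With a log2 pseudocount of 0.1 in place of 1, 16 members changed at least 2-fold. The share of all genes at that pseudocount was not computed, so this count cannot be set against it.

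**Figure D1:**
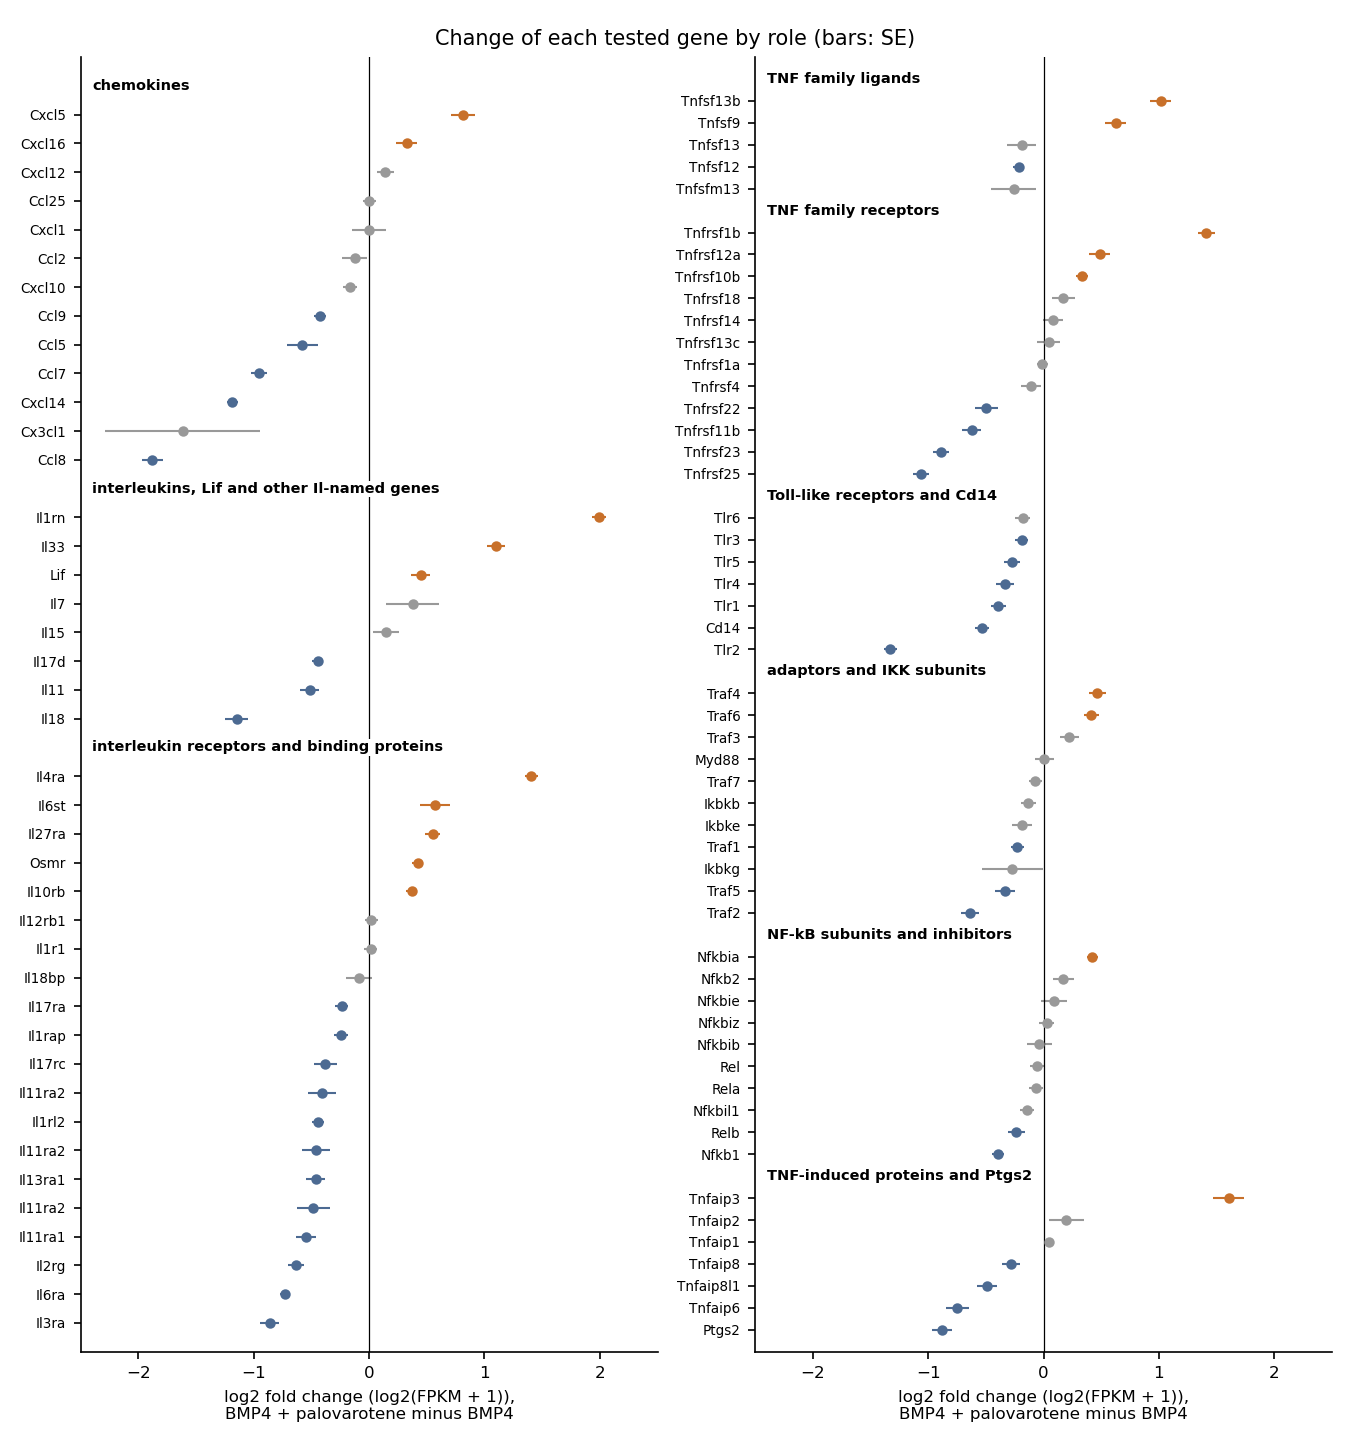
Log2 fold change of the 93 tested members on the log2(FPKM + 1) scale, palovarotene minus BMP4 libraries, by role, where points are the fitted change and bars its SE. Orange points rose (19 genes), blue points fell (40) and grey points did not pass the test (34).

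Of 14 chemokine genes, 13 were tested, and 5 fell (38.5%, against 23.8% of all genes) and 2 rose (15.4%, against 19.1%). The members that fell were Ccl5, Ccl7, Ccl8, Ccl9 and Cxcl14, the last in the table through the BMP4 group alone. Ccl7 and Ccl2, which both attract monocytes, had the highest levels of the family. Ccl7 (chromosome 11, 82045712 to 82047525, GRCm38) was at 49.8, 48.0 and 54.1 FPKM in BMP4 libraries and at 27.0, 26.6 and 23.4 in palovarotene libraries. Every palovarotene library lay below every BMP4 library, and the log2 fold change was -0.95 with an SE of 0.0708 (limma adjusted p = 6.8e-05). Ccl2 (chromosome 11, 82035571 to 82037453) was at 16.0, 16.9 and 21.3 FPKM with BMP4 and 17.6, 15.5 and 16.0 with palovarotene, so the groups overlapped, and it did not pass the test (log2 fold change -0.13, adjusted p = 0.38). The 2 genes lie 8.26 kb apart. Ccl8 (82115185 to 82116799), a further CC chemokine gene 67.7 kb beyond Ccl7, was at 3.97, 4.72 and 4.97 FPKM with BMP4 and at 0.423, 0.646 and 0.462 with palovarotene. Its mean was 8.92 times lower, the largest fall of the members by log2 fold change (-1.88, SE 0.0904, adjusted p = 9.24e-06). The 3 neighbours thus ranged from no detected change to a fall of 8.92 times in mean FPKM.

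A second pair of CC chemokine genes on chromosome 11 also fell. Ccl5, which attracts T cells, was at 1.57, 2.03 and 2.77 FPKM with BMP4 and 1.21, 1.02 and 0.974 with palovarotene (log2 fold change -0.58, adjusted p = 0.0133). Ccl9, 42.4 kb away, had means of 1.08 ± 0.0726 and 0.551 ± 0.0375 FPKM (SD, n = 3; log2 fold change -0.42, limma adjusted p = 0.000707). Among CXC chemokines, Cxcl14, a chemokine of epithelia and stroma, was at 1.38, 1.43 and 1.32 FPKM with BMP4 and at 0.068, 0.0412 and 0.0222 with palovarotene. For Cxcl14 a difference was a condition of being listed, and its mean was 31.5 times lower (log2 fold change -1.19, adjusted p = 3.91e-06). In the transcript table its only listed transcript, Cxcl14-201, was at 0.345 FPKM in BMP4 replicate 2 against 1.38 and 1.32 in the other BMP4 libraries, and it was not called (adjusted p = 0.0744).

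Cxcl5 and Cxcl16 went the other way. Cxcl5, a neutrophil attractant that acts through Cxcr2, was at 1.35, 1.26 and 1.89 FPKM with BMP4 and 3.35, 3.07 and 3.72 with palovarotene, 2.25 times higher in mean (log2 fold change 0.82, SE 0.106, adjusted p = 0.001). Cxcl1, a ligand of the same receptor whose gene lies 130 kb from Cxcl5 on chromosome 5, was at 2.05, 2.68 and 3.59 FPKM and at 2.39, 2.94 and 2.83. Its groups overlapped, and its change of 0.00 had an adjusted p of 0.991. Cxcl16, a membrane-bound chemokine, rose by 0.33 (adjusted p = 0.0234), a call lost without BMP4 replicate 3 (0.32), palovarotene replicate 2 (0.30) or palovarotene replicate 3 (0.32), which leaves 1 chemokine higher. Cxcl10, an interferon-induced chemokine, had means of 1.38 ± 0.112 and 1.12 ± 0.0625 FPKM and missed the threshold (adjusted p = 0.0529). Cxcl12 and Ccl25 had mean ratios of 1.16 and 1.01, and the call for Cxcl12 was reached only without BMP4 replicate 2 (0.21). Cx3cl1, the membrane-tethered fractalkine, was at 1.91, 10.5 and 10.5 FPKM with BMP4 and at 4.3, 0.662 and 0.514 with palovarotene. Replicate 1 of each group stood apart from the other libraries of its group, low in BMP4 and high in palovarotene, so the groups overlapped and the gene was not called (log2 fold change -1.62, adjusted p = 0.0956). It passed the test without BMP4 replicate 1 (-2.27) or without palovarotene replicate 1 (-2.20). Ccl17, a neighbour of Cx3cl1 and a ligand of Ccr4, was too low to be tested, at 0.801, 0.583 and 0.463 FPKM and at 0, 0.293 and 0.299.

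**Figure D2:**
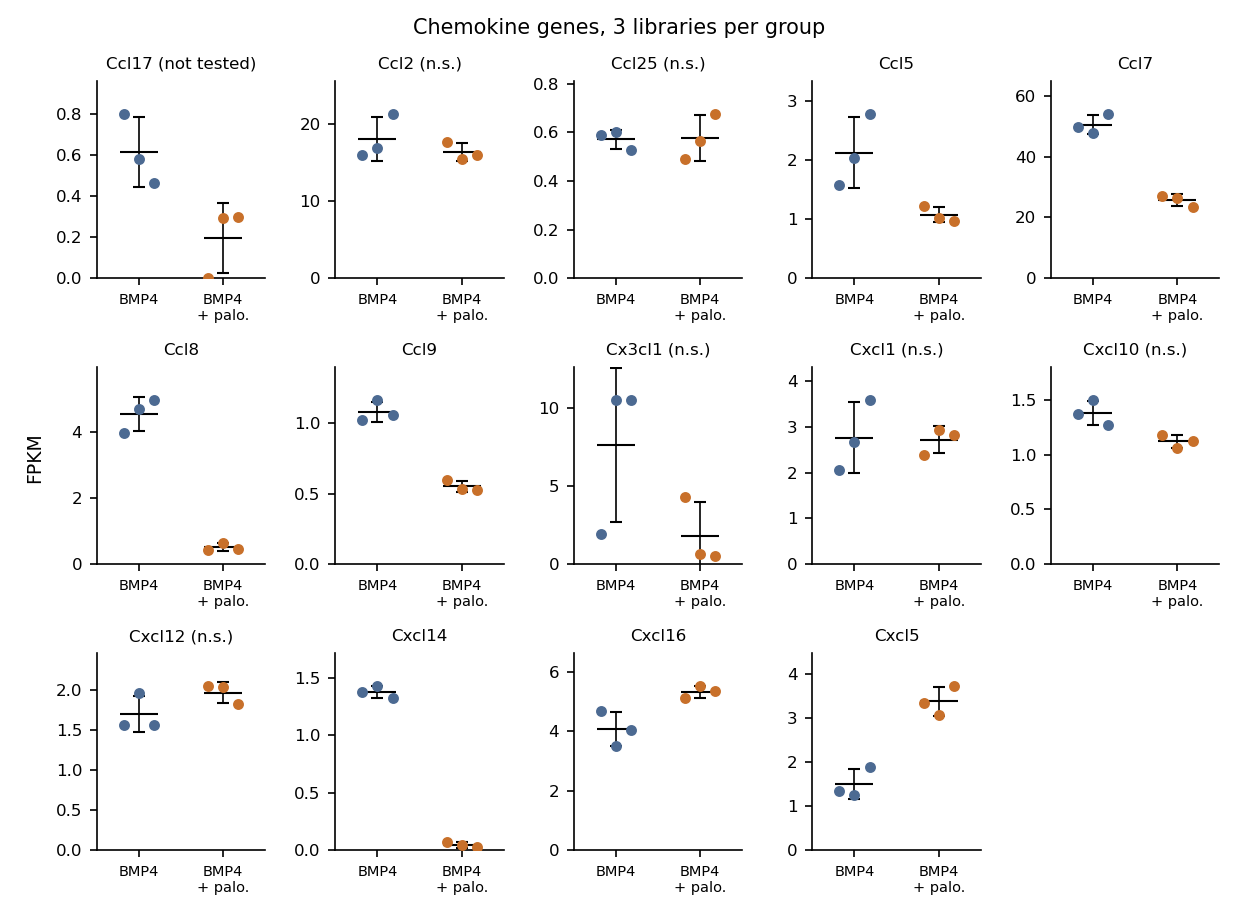
FPKM of the 14 chemokine genes in each library, with the group mean and SD as black bars. The marks n.s. and not tested name genes that did not pass the test or lay under its level, and Cx3cl1 shows 1 library of each group away from the others, with its lower SD bar for palovarotene ending at the axis.

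Among the 8 genes of interleukins and Lif, 3 rose, 3 fell and 2 did not pass the test (75% called, against 43.0% of all genes). Of those called, Il1rn, Il33 and Il17d are in the table through 1 group alone, so their difference was a condition of being listed and enters this share. The largest rise was that of Il1rn (chromosome 2, 24336853 to 24351494), which encodes the antagonist that blocks the interleukin-1 receptor. It was at 0.0631, 0.123 and 0.133 FPKM with BMP4 and at 3.6, 3.18 and 3.44 with palovarotene, a mean 32.1 times higher (log2 fold change 1.99, SE 0.0582, adjusted p = 1.11e-06). No library came near the other group, but for Il1rn a difference was a condition of being listed. Both listed transcripts rose: Il1rn-204 from between 0.0792 and 0.284 to between 6.29 and 7.01 FPKM (adjusted p = 0.000216), and Il1rn-205 from between 0 and 0.082 to between 0.952 and 1.28 (adjusted p = 0.00299). Il33, an alarmin of barrier and stromal cells, was at 0.267, 0.207 and 0.34 FPKM with BMP4 and 1.88, 1.83 and 1.46 with palovarotene, 6.35 times higher in mean (log2 fold change 1.10, adjusted p = 5.76e-05). Lif, a cytokine of the interleukin-6 family, rose from 1.34 ± 0.132 to 2.19 ± 0.301 FPKM (SD, n = 3; 0.45 on the log2 scale, limma adjusted p = 0.00537).

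Il18, an interleukin-1 family cytokine released after inflammasome cleavage, moved in the opposite direction to Il1rn and Il33. It was at 7.17, 8.59 and 8.39 FPKM with BMP4 and at 3.45, 3.22 and 2.61 with palovarotene, with no overlap (log2 fold change -1.15, SE 0.0997, adjusted p = 0.000142). Of its transcripts, Il18-202 fell whichever library was left out (-1.24 to -1.07), and Il18-203 lay under the level of the test. Il18-204 was called lower (-0.54, adjusted p = 0.0286), a call that held without BMP4 replicate 2 and was lost without any other of the 6 libraries (range -0.60 to -0.49). Il11, which signals through gp130, was at 1.29, 1.75 and 1.41 FPKM and at 0.818, 0.626 and 0.754, a mean 2.02 times lower (adjusted p = 0.00257). Il17d, for which a difference was a condition of being listed, fell from 0.754 ± 0.039 to 0.289 ± 0.0346 FPKM (SD, n = 3; limma adjusted p = 0.00042). Il15 and Il7, stromal survival factors of lymphocytes, did not pass the test. Il15 was at 4.77, 5.56 and 5.63 FPKM with BMP4 and 5.71, 5.2 and 7.21 with palovarotene, and Il7 spread from 0.762 to 2.3 and from 1.71 to 2.76.

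Receptors of interleukins changed in 17 of 20 tested rows (85%, against 43.0% of all genes), of which 12 fell (60%, against 23.8%) and 5 rose (25%, against 19.1%). Among the rows that fell are Il11ra1 and the 3 near-identical copies of Il11ra2, each counted on its own. Reads can be split among these rows, so the shares called and lower may count 1 signal more than once. The number that fell was 7 without palovarotene replicate 1 and 6 without palovarotene replicate 3. Il4ra, the receptor chain shared by interleukins 4 and 13, rose most (chromosome 7, 125552120 to 125579474). It was at 9.18, 8.07 and 8.52 FPKM with BMP4 and 24.8, 24.8 and 23.5 with palovarotene, 2.84 times higher in mean (log2 fold change 1.40, SE 0.0569, adjusted p = 4.26e-06). The chain that pairs with it for interleukin 13, Il13ra1, fell from 10.2 ± 1.09 to 7.07 ± 0.433 FPKM (SD, n = 3; limma adjusted p = 0.0041). Il2rg, the common gamma chain that pairs with it for interleukin 4, was at 5.56, 5.12 and 6.03 FPKM and at 3.43, 3.08 and 3.19 (log2 fold change -0.63, adjusted p = 0.000408), though 30.5% of its exon bases are shared with Gm20489 on the same strand. Il3ra, the interleukin-3 receptor alpha chain, was at 3.72, 3.2 and 3.5 FPKM and at 1.57, 1.63 and 1.19, the largest fall of an interleukin receptor (-0.86, adjusted p = 0.000286).

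In the interleukin-6 family the shared chain rose and 2 of the cytokine-specific alpha chains fell. Il6st, or gp130, was at 14.7, 11.3 and 15.0 FPKM with BMP4 and 24.1, 19.3 and 18.8 with palovarotene (log2 fold change 0.57, SE 0.13, adjusted p = 0.0116). Osmr, the oncostatin M receptor, rose from 7.63 ± 0.309 to 10.5 ± 0.188 FPKM (SD, n = 3; limma adjusted p = 0.00055). Il27ra, which also pairs with gp130, was at 0.897, 0.738 and 0.771 FPKM and at 1.78, 1.66 and 1.48, 2.05 times higher in mean (adjusted p = 0.000614). Against these, Il6ra was at 6.33, 6.3 and 6.44 FPKM with BMP4 and at 3.37, 3.49 and 3.45 with palovarotene, a narrow spread in both groups (log2 fold change -0.73, SE 0.046, adjusted p = 3.25e-05). Il11ra1 was at 11.8, 9.69 and 9.89 FPKM and at 7.12, 7.14 and 6.19 (-0.55, adjusted p = 0.00252). The 3 copies of Il11ra2, of which 1 is on chromosome 4 and 2 are on the scaffolds JH584293.1 and JH584294.1, are near-identical to it, so reads can be split among them. Summed over Il11ra1 and all copies, the level was 18.2 ± 3.11 FPKM with BMP4 and 11.6 ± 0.905 with palovarotene (SD, n = 3). Each copy was called lower (-0.48 to -0.41), and each of these calls was lost without BMP4 replicate 3 (-0.52 to -0.42), without palovarotene replicate 1 (-0.48 to -0.40) or without palovarotene replicate 3 (-0.47 to -0.37). The calls of the copies on the scaffolds were also lost without palovarotene replicate 2 (-0.50 and -0.45), and that of the copy on JH584294.1 without BMP4 replicate 1 (-0.28).

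Of the interleukin-1 receptor family, Il1rl2 and Il1rap fell and Il1r1 was not called. Il1r1, the receptor that Il1rn blocks, had means of 7.24 ± 0.453 and 7.33 ± 0.14 FPKM, without a call (SD, n = 3; limma adjusted p = 0.832). Its 2 listed transcripts differed in share: Il1r1-201 made up 22.5%, 29.4% and 7.6% of their summed FPKM in the BMP4 libraries and 69.1%, 69.9% and 30.5% in the palovarotene libraries. The groups did not overlap in this share, though only narrowly (29.4% against 30.5%), and neither transcript passed the test on its own (adjusted p = 0.167 and 0.144). Transcript shares of other members, such as Relb, Tlr6 and Traf5, did not overlap either. Il1rl2, the interleukin-36 receptor gene 7.35 kb from Il1r1, fell from 1.61 ± 0.0636 to 0.918 ± 0.0688 FPKM (adjusted p = 0.000624). The shared accessory chain Il1rap fell by 0.24 on the log2 scale, a call lost without palovarotene replicate 2 (-0.24) or replicate 3 (-0.23). Of the interleukin-17 receptors, Il17ra fell by 0.24 and Il17rc by 0.38. The call of Il17ra was lost without palovarotene replicate 1 (-0.20) or replicate 3 (-0.24), and that of Il17rc also without BMP4 replicate 3 (-0.37; palovarotene replicate 1, -0.34; palovarotene replicate 3, -0.34). The listed transcript Il17ra-201 went against its gene: it was at 0.896, 0.921 and 0.97 FPKM with BMP4 and at 2.74, 3.33 and 3.8 with palovarotene (adjusted p = 0.00442). Il10rb rose by 0.37 (adjusted p = 0.00108), with 14.9% of its exon bases shared with Gm21970. Il12rb1 and Il18bp, a secreted decoy for interleukin 18, did not pass the test. Il22ra1, under the level of the test, was at 0.064, 0.204 and 0.0951 FPKM and at 0.723, 0.81 and 0.678.

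**Figure D3:**
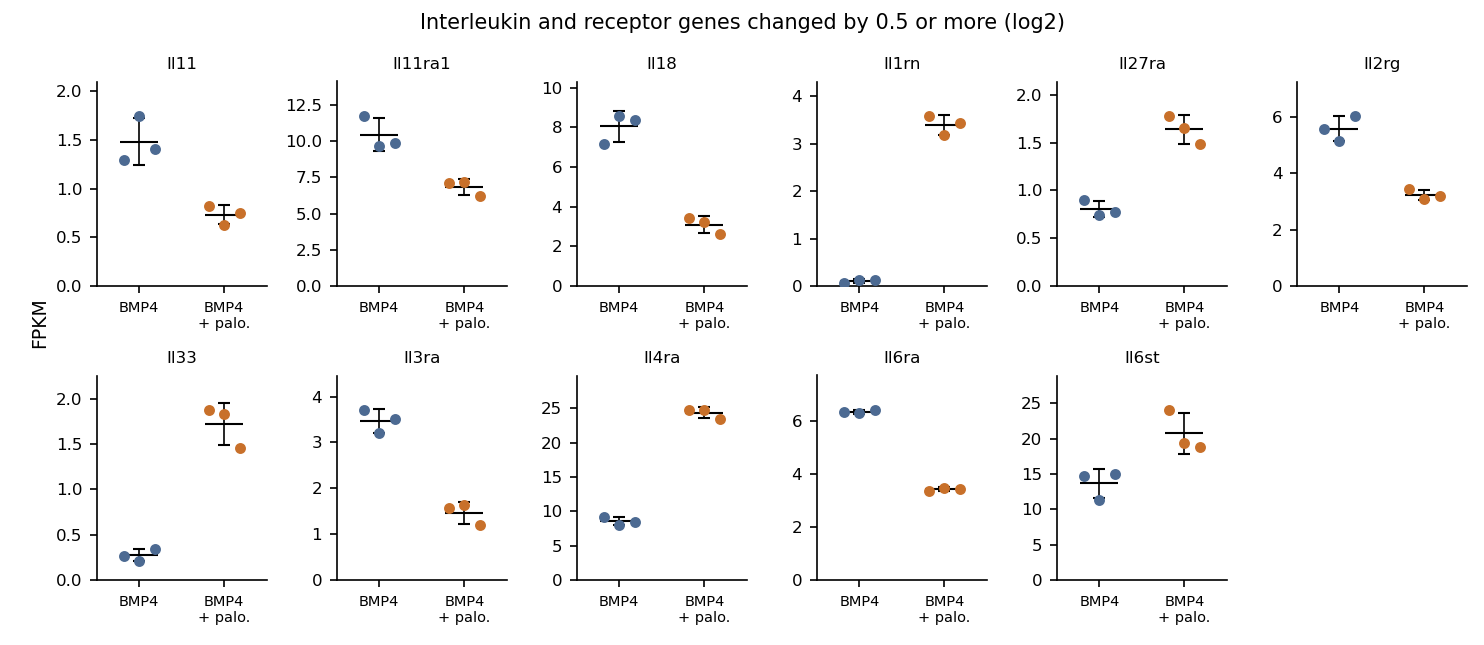
FPKM in each library of the interleukin and interleukin receptor genes that changed by at least 0.5 on the log2(FPKM + 1) scale without overlap of the groups, with the group mean and SD as black bars. Il1rn, Il33, Il4ra, Il27ra and Il6st are higher with palovarotene and the others are lower.

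Of the 6 TNF ligand genes, 5 were tested, and 2 rose and 1 fell (60% called, against 43.0% of all genes). Tnfsf13b, or BAFF, a survival factor of B cells (chromosome 8, 10006467 to 10039072), was at 0.0809, 0.0555 and 0.094 FPKM with BMP4 and at 1.51, 1.02 and 1.03 with palovarotene. The half-site pair shown earlier in its promoter was not tested as a binding site. For Tnfsf13b a difference was a condition of being listed, and its mean was 15.4 times higher (log2 fold change 1.01, SE 0.0915, adjusted p = 0.000173). Tnfrsf13c, the gene of its receptor, was not called, at 1.3 ± 0.203 and 1.38 ± 0.276 FPKM (SD, n = 3; limma adjusted p = 0.745). Tnfsf9, a costimulatory ligand of T cells, was at 7.57, 9.74 and 9.1 FPKM and at 13.9, 13.5 and 14.7, with no overlap (log2 fold change 0.62, adjusted p = 0.00146). Tnfsf15 was at 0.466, 0.636 and 0.544 FPKM with BMP4 and at 0.125, 0.164 and 0.133 with palovarotene and lay under the level of the test. Tnfsf12, or TWEAK, was at 30.3, 29.4 and 30.4 FPKM and at 25.2, 27.4 and 24.7 (log2 fold change -0.21, adjusted p = 0.0125). That call was lost without palovarotene replicate 1 (-0.20) or replicate 3 (-0.19), which leaves 0 ligands lower, while without BMP4 replicate 1 Tnfsf13 was also called (-0.32). Tnfsf12, Tnfsf13 and the joined gene Tnfsfm13 overlap in exons of 1 strand, which makes each value uncertain, and their summed level was 40.4 ± 2.48 with BMP4 and 34.1 ± 0.979 FPKM with palovarotene.

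Of 12 TNF receptor genes, 3 rose and 4 fell (58.3% called, against 43.0% of all genes). The 2 receptors of TNF itself differed. Tnfrsf1b (chromosome 4, 145213463 to 145246870), the receptor without a death domain, was at 28.0, 24.0 and 23.9 FPKM with BMP4 and 67.6, 72.3 and 66.5 with palovarotene, 2.72 times higher in mean (log2 fold change 1.41, SE 0.0711, adjusted p = 1.12e-05). Tnfrsf1a, the receptor with a death domain, was at 63.7, 67.0 and 68.6 FPKM and at 67.8, 66.6 and 63.5, with overlapping groups (log2 fold change -0.01, adjusted p = 0.88). In palovarotene libraries Tnfrsf1b and Tnfrsf1a had means of 68.8 ± 3.05 and 66.0 ± 2.22 FPKM (SD, n = 3), values that compare only roughly between genes. Tnfrsf12a, the TWEAK receptor and the member with the highest level, was at 78.9, 100.3 and 98.3 FPKM and at 131, 129 and 128 (0.49, adjusted p = 0.00484). Tnfrsf10b, the death receptor of TRAIL, rose by 0.33 (adjusted p = 0.00223).

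Tnfrsf25, the receptor of the Tnfsf15 protein, fell most among the TNF receptors, from 1.5, 1.25 and 1.52 FPKM to 0.168, 0.235 and 0.0808. Its mean was 8.83 times lower (log2 fold change -1.06, SE 0.0725, adjusted p = 4.71e-05), and a difference was a condition of its being listed. The decoy receptors of TRAIL known in the mouse, Tnfrsf22 and Tnfrsf23, lie 16.1 kb apart on chromosome 7 and are close paralogs, so reads can be shared. Tnfrsf23 was at 15.9, 18.8 and 16.5 FPKM and at 8.5, 8.67 and 9.06 (-0.89, adjusted p = 8.14e-05), and the sum of both genes went from 20.8 ± 2.02 to 11.04 ± 0.552 FPKM (SD, n = 3). Tnfrsf11b, osteoprotegerin, a decoy for the ligand that drives osteoclast formation, was at 4.95, 5.75 and 5.75 FPKM and at 3.57, 2.89 and 3.18 (-0.62, adjusted p = 0.00108). Tnfrsf4, Tnfrsf14 and Tnfrsf18, costimulatory receptors of lymphocytes, had mean levels under 3 FPKM in both groups, without a call.

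**Figure D4:**
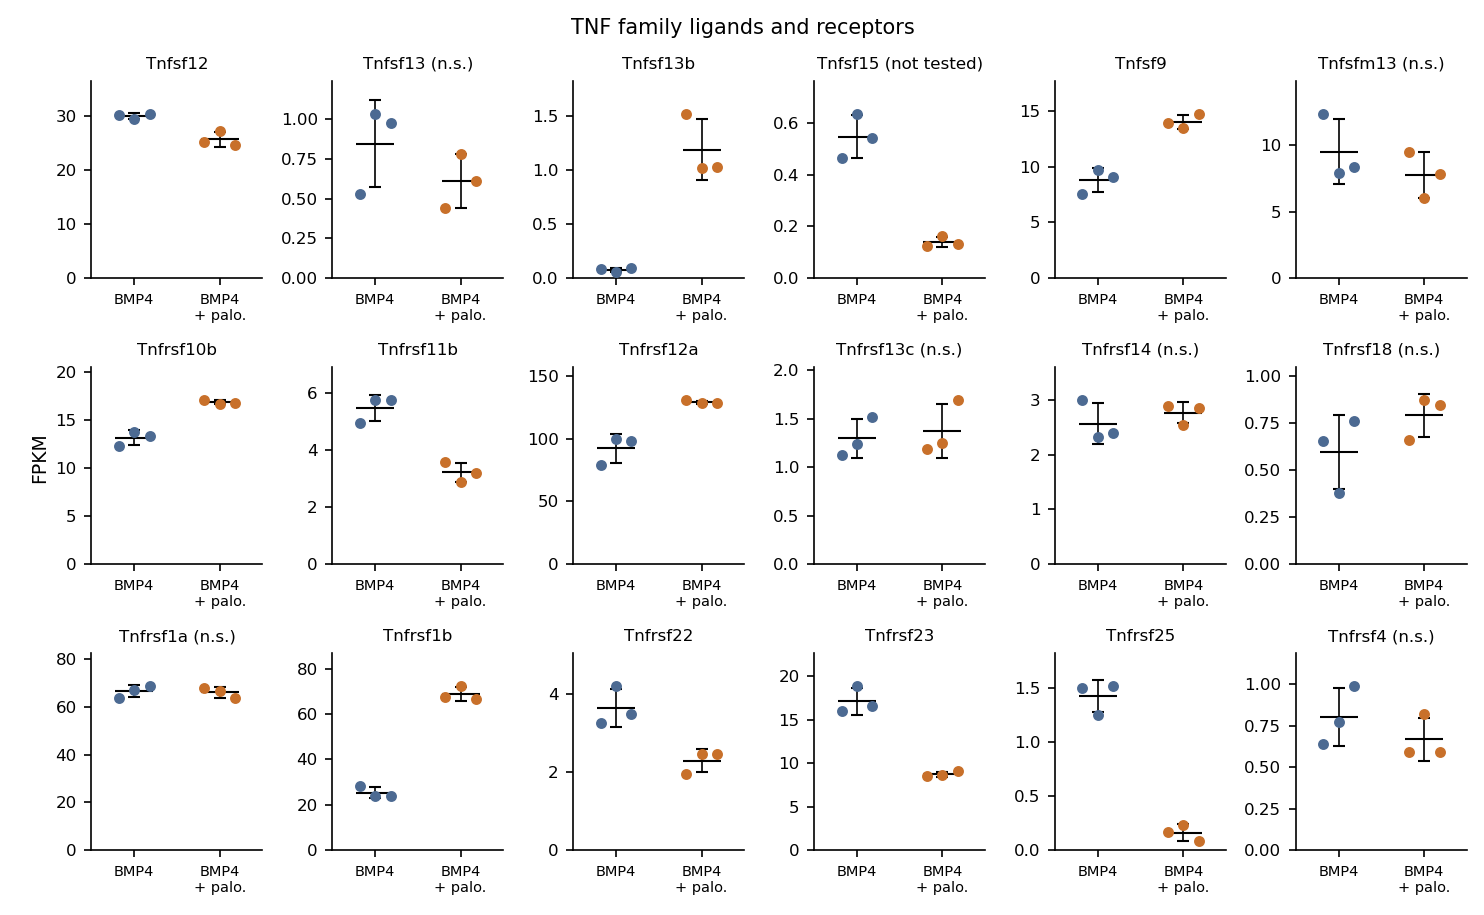
FPKM of the 6 TNF ligand and 12 TNF receptor genes in each library, with the group mean and SD as black bars. Tnfrsf1b and Tnfsf13b are higher in every palovarotene library, Tnfrsf25 and Tnfrsf23 are lower, and Tnfrsf1a overlaps between groups.

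The Toll-like receptor genes and Cd14 moved one way: all 7 rows had a lower mean with palovarotene and no overlap between the groups (54.9% of all genes), and 6 of 7 were called lower (23.8% of all genes). Tlr2 (chromosome 3, 83836272 to 83841767), a sensor of bacterial lipoproteins, was at 6.18, 5.88 and 6.54 FPKM with BMP4 and at 1.92, 1.89 and 1.78 with palovarotene, 3.33 times lower in mean (log2 fold change -1.33, SE 0.0561, adjusted p = 5.12e-06). Its partner Tlr1 fell from 3.36 ± 0.286 to 2.32 ± 0.119 FPKM (SD, n = 3; limma adjusted p = 0.00326). Its other partner Tlr6, a paralog 18.5 kb from Tlr1, had means of 2.81 ± 0.152 and 2.36 ± 0.177 and missed the threshold (adjusted p = 0.0523), which it passed without BMP4 replicate 1 (-0.21) or palovarotene replicate 1 (-0.22). Tlr4, the sensor of lipopolysaccharide, was at 17.9, 21.0 and 19.0 FPKM and at 16.1, 13.8 and 15.4 (log2 fold change -0.33, adjusted p = 0.0132). The strain C3H/HeJ is known for a loss-of-function allele of Tlr4, which these expression values do not show. Cd14, which hands lipopolysaccharide to Tlr4, was at 12.3, 11.1 and 11.3 FPKM and at 7.94, 7.88 and 7.26 (-0.53, adjusted p = 0.000473). Ly96, the gene of the Tlr4 partner MD-2, was at 7.2, 8.07 and 7.87 FPKM and at 4.46, 4.61 and 5.3 (-0.59, adjusted p = 0.000805). The calls of Tlr3 (-0.19) and Tlr5 (-0.27) were small and were lost in 5 and 4 of the 6 ways to leave out 1 library: Tlr3 kept its call only without BMP4 replicate 3, with -0.21 to -0.17 in the other cases, and Tlr5 without BMP4 replicate 3 or palovarotene replicate 2, with -0.27 to -0.23. Of the 4 leukocyte markers in the table, Cd68 fell from 5.82 ± 0.556 to 3.03 ± 0.214 FPKM and Aif1 from 1.61 ± 0.145 to 1.05 ± 0.0485 (SD, n = 3). Lst1 (9.89 ± 2.15 and 7.85 ± 1.59) and Lyz2 (1.24 ± 0.389 and 1.31 ± 0.26) overlapped between the groups and were not called. The part of these markers in the fall of Cd14 and the Toll-like receptor genes was not tested.

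Of the 11 genes of adaptors and kinases that join these receptors to NF-kB, 2 rose, 3 fell and 6 did not pass the test. The share called, 45.5%, was near the 43.0% of all genes, and the median absolute log2 fold change was 0.23 against 0.18 over all genes. Traf2, an adaptor of TNF receptors, was at 11.1, 9.17 and 10.6 FPKM with BMP4 and at 6.14, 6.68 and 5.98 with palovarotene (log2 fold change -0.63, SE 0.0779, adjusted p = 0.000761). Traf6, the adaptor of Toll-like and interleukin-1 receptors, rose from 2.64 ± 0.207 to 3.84 ± 0.194 FPKM (SD, n = 3; limma adjusted p = 0.00212). Traf4 was at 14.6, 12.9 and 15.3 FPKM and at 20.4, 20.8 and 18.8 (0.46, adjusted p = 0.00238). Traf7 was at 15.9, 17.1 and 16.4 FPKM and at 14.5, 16.2 and 16.1 and did not pass. The calls of Traf1 (-0.23) and Traf5 (-0.33) were lost without BMP4 replicate 3 (-0.21 and -0.30) or palovarotene replicate 3 (-0.21 and -0.26), which leaves 1 member lower. Traf1 also lost it without palovarotene replicate 1 (-0.21) and Traf5 without BMP4 replicate 1 (-0.29). Traf3 missed the threshold (adjusted p = 0.0718) and passed it without palovarotene replicate 1 (0.30). Myd88 had means of 9.63 ± 0.654 and 9.71 ± 1.11 FPKM (adjusted p = 0.95). The IKK genes Ikbkb, Ikbke and Ikbkg had mean ratios of 0.885, 0.788 and 0.799 and did not pass.

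The NF-kB subunits and their inhibitors were the role with the smallest share of calls, 3 of 10 against 43.0% of all genes. Rela, which encodes the main activating subunit, was at 52.4, 45.5 and 49.0 FPKM with BMP4 and 46.1, 48.6 and 45.1 with palovarotene (log2 fold change -0.07, SE 0.061, adjusted p = 0.403). Nfkb1, whose product is cut to the p50 partner of Rela, fell: it was at 7.43, 7.47 and 6.73 FPKM and at 5.27, 5.23 and 5.22 (-0.39, SE 0.0545, adjusted p = 0.00131). This fall was not seen in its 3 listed transcripts, Nfkb1-201 (0.018), Nfkb1-203 (-0.055) and Nfkb1-206 (-0.059). None of them was called (limma adjusted p = 0.994, 0.889 and 0.916). Nfkbia, the inhibitor, rose: it was at 46.3, 44.0 and 48.7 FPKM and at 63.5, 61.7 and 62.3, with no overlap (0.42, SE 0.0472, adjusted p = 0.000473). Relb, a subunit of the non-canonical pathway, fell by 0.24, a call lost without BMP4 replicate 1 (-0.19), BMP4 replicate 3 (-0.22), palovarotene replicate 1 (-0.20) or palovarotene replicate 3 (-0.24), which leaves Nfkb1 as the 1 member lower. Its partner Nfkb2 was at 31.5 ± 4.01 and 35.4 ± 1.49 FPKM (SD, n = 3; limma adjusted p = 0.173) and was called higher only without BMP4 replicate 1 (0.26), which makes 2 higher. Rel, Nfkbib, Nfkbie and Nfkbiz had mean ratios between 0.95 and 1.07, and Nfkbil1 one of 0.896, without a call.

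Of the genes named for induction by TNF, with Ptgs2, 1 rose, 4 fell and 2 did not pass the test (71.4% called, against 43.0% of all genes). Their products differ widely in function. Tnfaip3, or A20, an enzyme that edits ubiquitin and curbs NF-kB signalling (chromosome 10, 19000910 to 19015657), was at 0.746, 0.351 and 0.417 FPKM with BMP4 and 4.17, 2.94 and 3.6 with palovarotene, 7.08 times higher in mean (log2 fold change 1.60, SE 0.131, adjusted p = 0.000107). Ptgs2, the inducible cyclooxygenase of prostaglandin synthesis, was at 5.41, 6.88 and 6.89 FPKM and at 3.04, 2.94 and 3.03, 2.13 times lower (-0.88, SE 0.0889, adjusted p = 0.000302). Tnfaip6, a hyaluronan-binding protein, was at 1.38, 2.05 and 1.53 FPKM and at 0.587, 0.465 and 0.672 (-0.75, adjusted p = 0.00124). Tnfaip8l1 fell from 4.98 ± 0.161 to 3.27 ± 0.494 FPKM (SD, n = 3; limma adjusted p = 0.00393). Its relative Tnfaip8 fell by 0.28, a call lost without BMP4 replicate 1 (-0.26), BMP4 replicate 3 (-0.26), palovarotene replicate 1 (-0.26) or palovarotene replicate 3 (-0.22). Tnfaip1 was at 48.3, 46.5 and 46.2 FPKM and at 48.8, 48.9 and 48.4, and did not pass (adjusted p = 0.314). Tnfaip2 was at 26.8, 17.5 and 18.4 FPKM and at 22.7, 22.9 and 25.5, where BMP4 replicate 1 was above every other library. Without it the gene was called higher (0.38), which makes 2 higher.

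**Figure D5:**
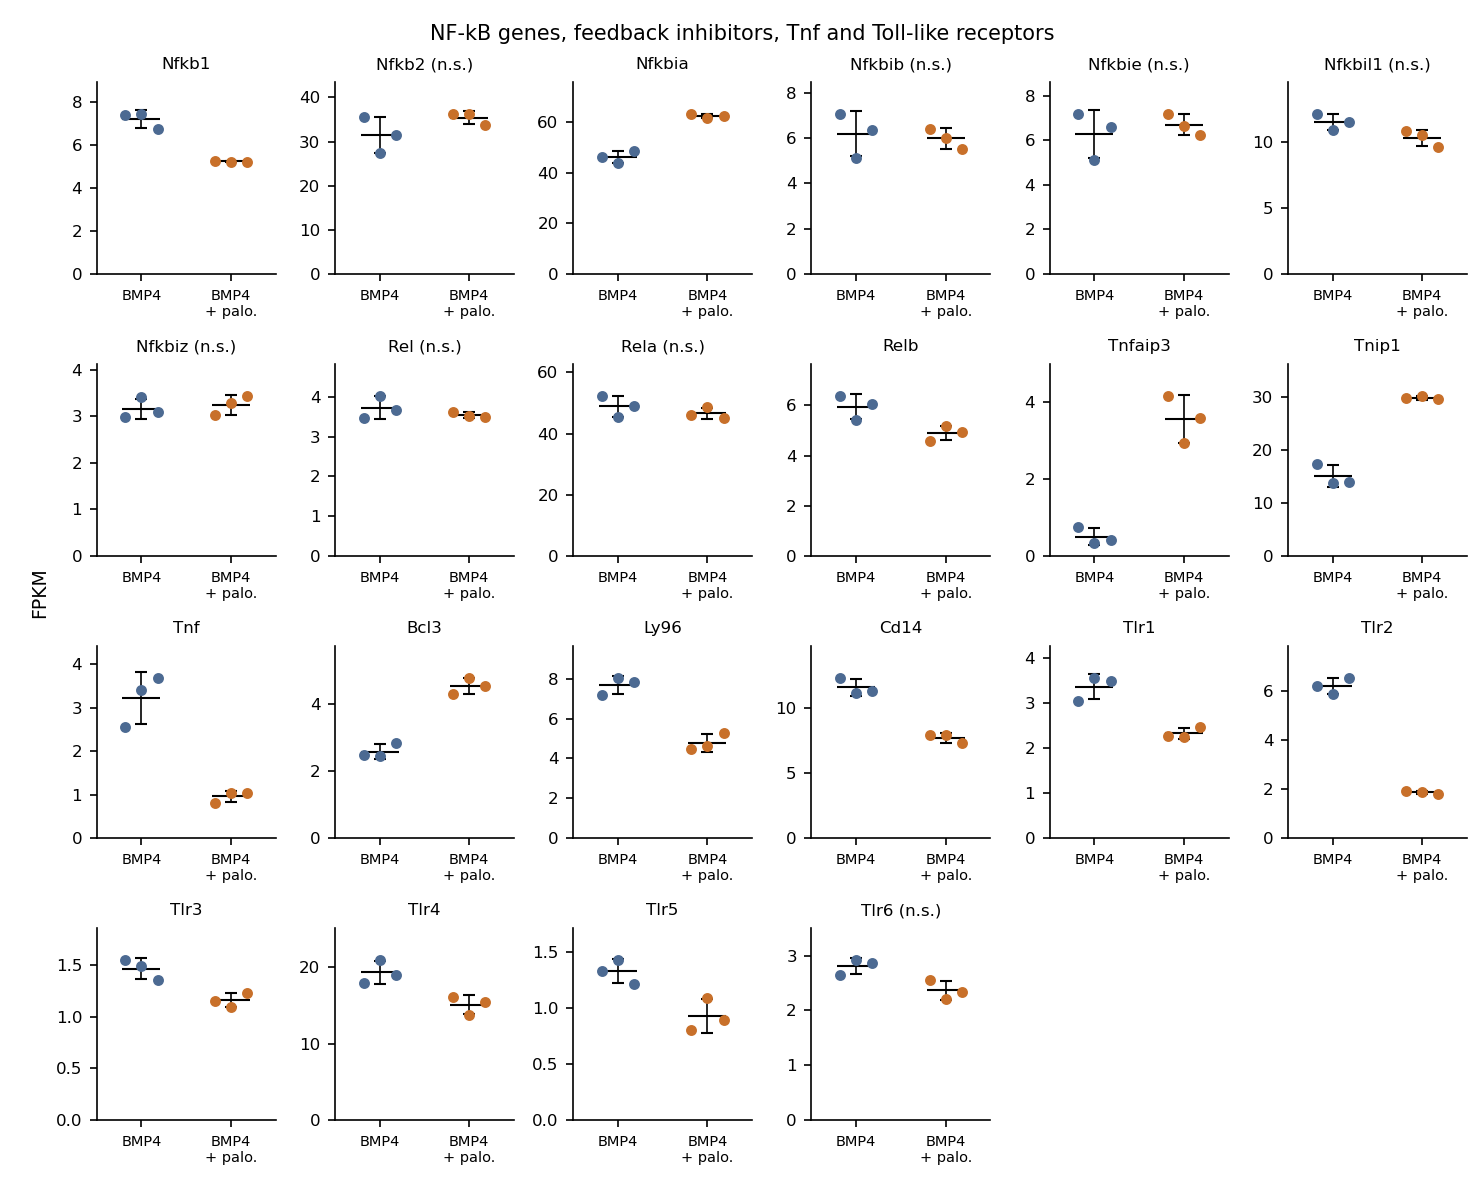
FPKM in each library of the NF-kB subunit and inhibitor genes, of Tnfaip3, Tnip1, Tnf, Bcl3 and Ly96, and of the Toll-like receptor genes and Cd14, with the group mean and SD as black bars. Nfkbia, Tnfaip3, Tnip1 and Bcl3 are higher in every palovarotene library, Tnf, Tlr2 and Cd14 are lower, and Rela overlaps between groups.

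Other genes of the pathway were read from 4 further lists. Of 47 signalling genes outside the symbols chosen, 45 are in the table and were tested. Of these, 6 rose and 9 fell (33.3%, against 43.0% of all genes), with a median log2 fold change of 0.03. Tnf itself, the gene of the ligand, was at 2.56, 3.42 and 3.7 FPKM with BMP4 and at 0.816, 1.03 and 1.03 with palovarotene, with no overlap (log2 fold change -1.10, SE 0.111, adjusted p = 0.000298). Tnip1, whose product binds A20 and ubiquitin chains, was at 17.5, 13.8 and 14.0 FPKM and at 29.9, 30.4 and 29.7 (0.95, adjusted p = 0.000181). Bcl3, an atypical IkB protein of the nucleus, rose from 2.58 ± 0.218 to 4.54 ± 0.244 FPKM, and Peli2, an E3 ligase of interleukin-1 and Toll-like signalling, fell from 9.03 ± 0.276 to 4.52 ± 0.155 (SD, n = 3; limma adjusted p = 0.000345 and 2.15e-05). Of 30 NF-kB target genes outside the symbols, 20 are in the table and were tested, and others, such as Csf2, Nos2 and Sele, are not analysed here. Of the 20 tested, 7 rose and 5 fell (60%, against 43.0% of all genes), with a median of -0.04. They split by gene: Mmp3 (2.30) and Plau (1.15), both of matrix breakdown, and the adhesion genes Icam1 (0.55) and Vcam1 (0.54) rose, whereas Ptx3 (-1.15), Tnc (-1.09), Ccnd1 (-0.98) and Csf1 (-0.53) fell.

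Of 27 genes of Jak kinases, Stat factors, Socs inhibitors and the interleukin-6 family, 25 are in the table and were tested. Of these, 4 rose and 7 fell, with a median of -0.09. The share called, 44%, was near the 43.0% of all genes. Leaving out BMP4 replicate 1, BMP4 replicate 2 or palovarotene replicate 3 gave 4 lower. Cntfr, the alpha receptor of ciliary neurotrophic factor and a partner of gp130, was at 1.05, 0.958 and 0.956 FPKM with BMP4 and at 4.41, 4.54 and 4.52 with palovarotene (log2 fold change 1.47, adjusted p = 1.85e-06). Jak1 rose by 0.48 and Jak2 fell by 0.72, and Socs2, a feedback inhibitor, fell by 1.40 (adjusted p = 0.000292, 2.14e-05 and 1.82e-05). Of 23 chemokine receptor genes, 2 are in the table. Ackr3, the scavenging receptor of Cxcl12, rose by 0.21 and Cxcr4, its signalling receptor, fell by 0.22 (adjusted p = 0.0193 and 0.0148). The call of Ackr3 was lost without palovarotene replicate 1 or replicate 3, and that of Cxcr4 without palovarotene replicate 3, each time leaving 0 genes in that direction. Receptors such as Ccr2, for Ccl2 and Ccl7, and Cxcr2, for Cxcl5, are not analysed here.

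In the transcript table the members had 151 rows, of which 137 were tested. Of these, 18 rose (13.1%, against 6.49% of all transcripts tested) and 22 fell (16.1%, against 6.42%). Together that is 29.2%, against 12.9% of all. By at least 2-fold, 7 member transcripts rose and 4 fell, where 1.72% of all transcripts tested rose and 1.36% fell by this much. Left out singly, the libraries gave 11 to 15 higher and 11 to 18 lower, the lowest without palovarotene replicate 1 for the higher and without BMP4 replicate 3 or palovarotene replicate 2 for the lower. Tnfsf13b-201 was at 0, 0 and 0.124 FPKM with BMP4 and at 2.77, 2.47 and 3.03 with palovarotene (adjusted p = 0.00059). Tnfaip3-202 was at 0.403, 0.334 and 0.408 FPKM and at 4.0, 1.94 and 1.66 (adjusted p = 0.0305). That call was lost without BMP4 replicate 1 (1.31), BMP4 replicate 2 (1.27), BMP4 replicate 3 (1.31) or palovarotene replicate 2 (1.40), and its adjusted p over all alternatives reached 0.0987. The transcript Tnfaip3-204, under the level of the test, was listed at 0 in all BMP4 libraries and at 1.17, 0.724 and 0.452. For Il6ra the transcript Il6ra-202 fell (4.16, 4.42 and 4.06 against 1.87, 1.95 and 2.27 FPKM, adjusted p = 0.00726), and Il6ra-201 did not pass (adjusted p = 0.069). For Traf2 the fall was called in Traf2-202 (adjusted p = 0.00289) and not in Traf2-201 (adjusted p = 0.185). Exons of 7 members overlap another gene on the same strand and those of 24 more overlap a gene on the opposite strand in GENCODE vM21, so values of these are uncertain, and whether the counting used strand was not stated in these sources.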

How the data were processed

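RNA of 6 libraries was sequenced from a strand-specific kit, per the labels' protocols. Named in the submitters' processing notes are HISAT2, StringTie, cutadapt and FastQC (no versions) and the build GRCm38, with no role stated for any. The deposited values are FPKM per gene (11773 rows) and per transcript (22330 rows), as computed by the authors, per the file headers. The higher group mean was never below 0.5004 FPKM in the gene table. Sums per library were 244119 to 251290 FPKM. No steps of single fragments were found in low values (best mean cosine 0.0972 to 0.129, against 0.11 to 0.149 after jitter), so depth stays unknown and counting intervals are left out. Each library's own depth therefore limits low values to an unknown degree.

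Both tables were fitted whole with limma 3.58.1 (R 4.3.3) on log2(FPKM + 1) with a variance trend, for rows whose mean reached 0.5 FPKM (11584 genes, 21101 transcripts), with Benjamini-Hochberg adjustment over all rows tested. The test was tried on simulated data. No replicate block was used. Members named with values for each library are those called with an absolute log2 fold change of at least 0.5 and no overlap, and the 2 of highest level in each role; others are named after their values were seen, and further lists give up to 4 members of smallest p, with added examples. The members, roles and lists were chosen with earlier results of these data known. Gene coordinates are those of the tables; 86 of 96 members had the same versioned identifier in GENCODE vM21, and all 10300 shared genes had the same start and end. Promoters came from RefSeq (71 of 94 symbols matched) and were searched on both strands. The fit was repeated with quantile or median-ratio scaling, without the trend, with a pseudocount of 0.1, with the filter removed or set at 5 FPKM, with a block for replicate number, and without each library in turn on the same tested rows.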

Additional observations from a re-analysis of the deposited data

How the results depend on the processing

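Of the 59 called members, 45 kept the call in every alternative that tested them, and 8 of the 34 others were called in at least 1. No member changed sign between the main fit and an alternative where either fit called it. Sign changes of members called in neither fit, such as Cxcl1, did occur and were not counted. A filter at a mean of 5 FPKM left 37 members, of which 10 rose, 13 fell and 3 changed at least 2-fold; over all genes it gave 1419 higher and 1692 lower, in signalling genes 1 higher, in the Jak and Stat list 4 lower, in chemokine receptors 0 lower, and in member transcripts 9 higher and 9 lower, because fewer rows are tested. Quantile normalization gave 4 lower in the Jak and Stat list; the cause was not tested. Leaving out 1 library at a time gave 18 to 21 members higher, 27 to 38 lower and 10 to 12 changed at least 2-fold, 4 to 6 lower in the Jak and Stat list, 0 to 1 chemokine receptor higher, 0 to 1 lower, and 11 to 15 transcripts higher and 11 to 18 lower, with fewer samples in each fit. Over all genes the same fits gave 1707 to 2161 higher and 2076 to 2683 lower, against 2217 and 2759 with all 6 libraries. With a replicate block 18 members rose and 33 fell, 0 chemokine receptors rose, and 5 transcripts rose and 4 fell. The counts over all genes and all transcripts with this block are not given here. The samples share only a number: deviations of same-numbered libraries correlated at -0.136 to -0.0207, and the labels name no shared culture. A count test was planned only for counts and was not run. Depth is unknown, so differences among genes near 0.5 FPKM are the least certain.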
